A study of Mus musculus with 24 samples.

Results

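The genes described here are the subunit, activator and assembly genes of the proteasome, the protease that degrades proteins tagged with ubiquitin. They were taken from the gene table as every protein-coding mouse gene whose symbol begins with Psma, Psmb, Psmc, Psmd, Psme or Psmg followed by a digit, without the immunoproteasome genes Psmb8, Psmb9 and Psmb10. The rule found 45 of the 16604 genes used, and 44 of them were among the 11297 genes with enough signal to test. By role they were 7 genes of the core alpha ring, 8 of the core beta ring, 6 ATPases and 11 other subunits of the regulatory particle, 5 activators and 7 assembly chaperones. The remaining match, Psmc3ip, shares the name pattern but encodes a recombination cofactor and no subunit, so it is counted among the 44 and kept out of the particle counts. Psma8 also fits the name rule and was not analysed here. Psmb11, the thymus form of a catalytic beta subunit, lay between 0 and 0.06 FPKM in every library and was not tested.

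All libraries were made from EMS404, a line of hepatic stellate cells from C57Bl6 mouse liver, immortalized with SV40 and expressing human TLR4. Being a single immortalized line, it stands for stellate cells only within those limits. There were 8 groups of 3 libraries, described by the submitters as biological triplicates, with no statement of what separated them. Control cells received vehicle, named DMSO in the library names. The other groups received TGFb at 10 ng/mL, the TGFb receptor inhibitor SB431542, the REV-ERBalpha agonist SR9011, the CLOCK:BMAL1 dimer disruptor CLK8, or each compound together with TGFb. Compounds were given for 24 h before TGFb was added for a further 24 h, with compound doses not stated in the labels. Whether cells that got no TGFb stayed in culture for the second period is not stated either, so TGFb and time in culture cannot be told apart in the comparisons with TGFb. p-values measure the spread between libraries of the same group, estimated over all 8 groups together and not from the compared groups alone.

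The proteasome is a barrel-shaped core particle capped by regulatory particles. Alpha rings gate the entrance of the core, and the inner beta rings carry the proteolytic sites. The regulatory particle binds and removes ubiquitin, and its ring of ATPases unfolds the substrate and feeds it into the core. Alternative caps, the activators, open the core without ubiquitin, and dedicated chaperones build the rings and then leave. In many cell types the subunit genes are raised together by the transcription factor NRF1, the product of Nfe2l1, when proteasome activity falls, whereas interferon raises the immunoproteasome subunits and the activator pair Psme1 and Psme2. TGFb turns stellate cells into the matrix-producing myofibroblasts of liver fibrosis.

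Values were FPKM, which scale fragments by transcript length and library size and allow levels of different genes to be set side by side. Library sums of FPKM ranged from 504304 to 610449, with 10780 to 11000 genes at 1 FPKM or more. The number of reads is not in the table. The step between low values gave a relative depth of 0.96 to 1.04 over 59 low genes. Of 11 stellate cell markers in the table, 7 reached 1 FPKM (Col1a1, Col1a2, Col3a1, Acta2, Pdgfrb, Hand2 and Lhx2), while Des, Reln, Ngfr and Gfap were at or near 0. Summed hepatocyte markers lay between 0 and 0.22 FPKM and summed endothelial markers between 0.08 and 0.47 FPKM. Summed cholangiocyte markers lay between 2.51 and 11.4 FPKM and summed leukocyte markers between 1.05 and 3.15 FPKM, of which Cd68 made up most while Ptprc did not exceed 0.02 FPKM. The part of these markers in the results was not tested. Libraries of the SR9011 group scattered most around their mean: their mean squared deviations over all genes were 0.0192, 0.0119 and 0.00925, against 0.00346 to 0.00891 elsewhere. In those 3 libraries the proteasome genes deviated from the group mean by 0.074, -0.09 and 0.016 log2 units on average, and replicate 2 was the lowest of the 3. The tests pooled this wider scatter with that of the other groups, so standard errors for SR9011 may understate its spread.

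In vehicle cells the core genes stood above the assembly chaperones without overlap. The 14 tested core genes had group means from 116 FPKM for Psma5 to 342 FPKM for Psmb3, a 2.96-fold range, with a median of 164 FPKM. The 17 regulatory particle genes ran from 62.4 FPKM for Psmd11 to 215 FPKM for Psmc3, a 3.44-fold range, with a median of 99.8 FPKM. Every alpha ring gene except Psma7 lay below every tested beta ring gene except Psmb2. The ranges of the particles overlapped. Assembly chaperones formed a lower tier of 18.9 FPKM for Psmd9 to 36.0 FPKM for Psmd10. Activators spanned the widest range: Psme2 stood at 203 FPKM, Psme4 at 15.4 FPKM and Psme2b at 2.64 FPKM. Psme2b is a near copy of Psme2, so its reads are uncertain. A further 10 genes overlap another measured gene in the GENCODE M21 annotation (Psma2, Psma4, Psmb7, Psmc3, Psmd1, Psmd13, Psme1, Psmd5, Psmd9 and Psmc3ip), and Psme2b does too. Whether the counting used strand is not stated. For Psma2 and Psme2b the overlapping genes lie on the same strand, so strand would not separate their reads.

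**Figure D1:**
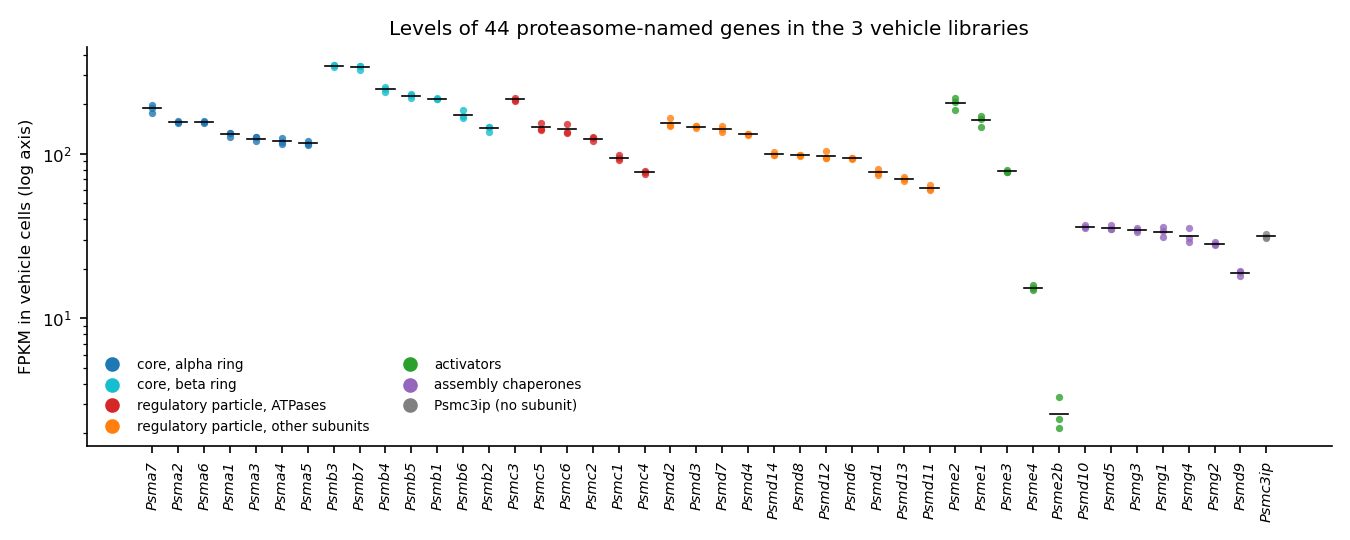
FPKM (log axis) of the 44 tested proteasome-named genes in the 3 vehicle libraries, ordered within each role; points are libraries and bars are means. Group means of core genes lie between 116 and 342 FPKM, assembly chaperones between 18.9 and 36.0 FPKM, and Psme2b lies lowest at 2.64 FPKM.

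The 3 catalytic subunits sat at different heights. Psmb7, which carries the trypsin-like site, measured 344, 343 and 324 FPKM in vehicle cells and 261 to 364 FPKM over the 24 libraries. Psmb5, with the chymotrypsin-like site, measured 231, 227 and 218 FPKM in vehicle cells and 202 to 290.0 FPKM in all 24. Psmb6, with the caspase-like site, measured 185, 170.3 and 165 FPKM in vehicle cells and 149 to 185 FPKM in all 24. Psmb6 passed the test in none of the 10 comparisons made (lowest adjusted p by limma 0.101, with SR9011 under TGFb). On the TPM scale, however, it was called lower with SR9011 (-0.19, limma adjusted p = 0.00834) and with SR9011 under TGFb (-0.22, limma adjusted p = 0.00297), the latter also with the compared groups alone (-0.13, limma adjusted p = 0.0303). Among all tested members, Psme2b had the widest spread of group means (4.92-fold), followed by Psme2 (2.02-fold), Psmd8 (1.86-fold) and Psme1 (1.70-fold). Psmd13 and Psmd5 had among the narrowest, at 1.13-fold each.

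Promoters are shown for 5 genes on which the comparisons below turn: Psmd8 and Psmb5, which rose with SR9011, Psmd12 and Psma7, which fell with it, and Psme1, which fell with TGFb. Each window holds 250 bases before and 50 bases after the RefSeq transcription start, on the gene's own strand, from the GRCm38.p6 table. Capitals mark matches, on either strand, to 5 searched motifs. One is TGACNNNGC, the core of the antioxidant response element that NRF factors bind. Another is the CCAAT box. The E-box is CACGTG, the element of CLOCK and BMAL1. REV-ERB and ROR factors bind an element holding AGGTCA, here called the REV-ERB motif. The last, GAAANNGAA, resembles the interferon-stimulated response element.
Psmd8 promoter, chr7:29180624-29180923, minus strand: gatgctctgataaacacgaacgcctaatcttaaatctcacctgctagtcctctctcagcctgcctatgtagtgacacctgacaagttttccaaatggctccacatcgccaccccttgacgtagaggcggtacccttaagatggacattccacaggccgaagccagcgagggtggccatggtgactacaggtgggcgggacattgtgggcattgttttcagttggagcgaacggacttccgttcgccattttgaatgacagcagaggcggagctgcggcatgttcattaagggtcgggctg
Psmb5 promoter, chr14:54617946-54618245, minus strand: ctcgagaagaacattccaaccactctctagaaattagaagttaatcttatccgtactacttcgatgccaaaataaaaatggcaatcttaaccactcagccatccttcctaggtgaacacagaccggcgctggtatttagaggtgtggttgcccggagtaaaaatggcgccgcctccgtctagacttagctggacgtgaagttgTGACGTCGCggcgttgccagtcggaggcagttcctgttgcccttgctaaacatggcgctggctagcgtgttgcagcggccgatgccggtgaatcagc
Psmd12 promoter, chr11:107479278-107479577, plus strand: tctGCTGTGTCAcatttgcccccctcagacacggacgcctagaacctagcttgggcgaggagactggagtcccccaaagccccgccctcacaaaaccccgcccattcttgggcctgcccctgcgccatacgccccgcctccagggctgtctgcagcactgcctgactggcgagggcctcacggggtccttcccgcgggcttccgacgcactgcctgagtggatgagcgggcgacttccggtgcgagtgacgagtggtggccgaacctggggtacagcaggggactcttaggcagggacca
Psma7 promoter, chr2:180042415-180042714, minus strand: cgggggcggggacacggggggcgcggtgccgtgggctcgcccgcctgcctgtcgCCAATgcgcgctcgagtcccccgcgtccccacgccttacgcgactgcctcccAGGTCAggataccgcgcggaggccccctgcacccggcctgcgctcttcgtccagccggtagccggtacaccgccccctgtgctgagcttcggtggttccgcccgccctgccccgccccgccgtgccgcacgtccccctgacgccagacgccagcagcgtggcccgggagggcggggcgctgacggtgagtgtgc
Psme1 promoter, chr14:55578244-55578543, plus strand: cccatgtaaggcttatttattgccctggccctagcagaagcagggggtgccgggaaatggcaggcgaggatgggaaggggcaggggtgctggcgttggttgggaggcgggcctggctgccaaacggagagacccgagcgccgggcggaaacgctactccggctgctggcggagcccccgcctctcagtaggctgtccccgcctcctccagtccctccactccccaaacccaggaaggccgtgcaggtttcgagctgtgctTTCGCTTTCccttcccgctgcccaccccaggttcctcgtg
None of the 5 motifs was found in the Psmd8 window. Psmb5 held the antioxidant core beginning 47 bases before the start and Psmd12 held it 247 bases before the start; the former gene rose and the latter fell with SR9011. Psma7 held a CCAAT box and a REV-ERB motif, 196 and 144 bases before the start. Psme1 held the interferon-like motif 10 bases after it. The Psme1 window, from 55578244, lies inside the gene as annotated in GENCODE M21, which begins at 55578123.

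Windows were found for 37 of the 44 tested members and for 8993 of all tested genes. The antioxidant core was present in 6 member windows (Psmb5, Psmb6, Psmc6, Psmd12, Psme4 and Psmd9), or 16.2%, against 15.0% of all windows. CCAAT was present in 35.1% of member windows and 39.8% of all windows, and in 6 of the 11 core windows (Psma1, Psma2, Psma3, Psma6, Psma7 and Psmb3). The E-box was present in 8.11% of member windows and 10.5% of all windows. The REV-ERB motif was present in 8 member windows, or 21.6%, against 11.6% of all. The interferon-like motif was present in 6, or 16.2%, against 6.86% of all. The antioxidant core and the reverse of the REV-ERB motif can overlap. These matches are descriptions of letters, not of bound sites.

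With TGFb, 8 of 17 regulatory particle genes and 4 of 14 core genes rose, and the activators split by type. Of the 44 members, 15 rose and 6 fell, where 20.5% of all tested genes were called higher and 34.4% lower. The members' median log2 fold change was 0.063 against -0.049 for all tested genes. One regulatory particle gene, Psmd8, fell, and the median over that particle was 0.125. Of the core genes 0 fell, and their median was 0.034. Among the 7 assembly chaperones 0 rose and 2, Psmd9 and Psmd10, fell, as did Psmc3ip. In bulk RNA a change in expression per cell and a change in the mix of cells cannot be told apart.

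The lid pair Psmd14 and Psmd7, the deubiquitinase and its partner, were among the subunits that rose. Psmd7 measured 147, 141 and 136 FPKM with vehicle and 173, 167 and 178 FPKM with TGFb (log2 fold change 0.29, SE 0.051, limma adjusted p = 5.71e-05). Psmd14 measured 103, 97.9 and 99.0 FPKM with vehicle and 120.0, 112 and 111 FPKM with TGFb (log2 fold change 0.19, SE 0.044, limma adjusted p = 0.000688). For both genes all 3 TGFb libraries lay above all 3 vehicle libraries. Psmc6, an ATPase of the unfolding ring, measured 152, 137 and 134 FPKM with vehicle and 173, 159.9 and 159.5 FPKM with TGFb (log2 fold change 0.22, SE 0.058, limma adjusted p = 0.0026). Psmd11, a lid subunit, rose from 62.4 ± 2.39 to 71.2 ± 2.88 FPKM (mean ± SD, n = 3 each) with a log2 fold change of 0.19. Psmd8, another lid subunit, was the regulatory particle gene that fell. It measured 98.3, 99.0 and 96.9 FPKM with vehicle and 85.04, 88.2 and 87.3 FPKM with TGFb, with no overlap (log2 fold change -0.17, SE 0.053, limma adjusted p = 0.00857).

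The core changes with TGFb were small. Psma1, Psma3, Psma4 and Psmb3 rose by 0.10, 0.14, 0.13 and 0.15 on the log2 scale, and each call was lost when 1 or another of the 6 libraries was left out. This also applied to Psmc1, Psmc2, Psmd1, Psmd12 and Psmd9, so 12 of the 21 calls were kept in every such fit. Without vehicle replicate 2, vehicle replicate 3, TGFb replicate 1 or TGFb replicate 3 the number of members called higher was 9, 7, 7 and 9. Rescaling each library to a fixed sum (TPM) gave 25 higher and 3 lower, while the calls over all genes went from 2311 higher and 3888 lower to 3004 and 2885, and the median of all tested genes then moved from -0.049 to 0.015. The fall of Psmd8, Psmd9 and Psmd10 was not called on that scale (log2 fold changes -0.10, -0.10 and -0.15).

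**Figure D2:**
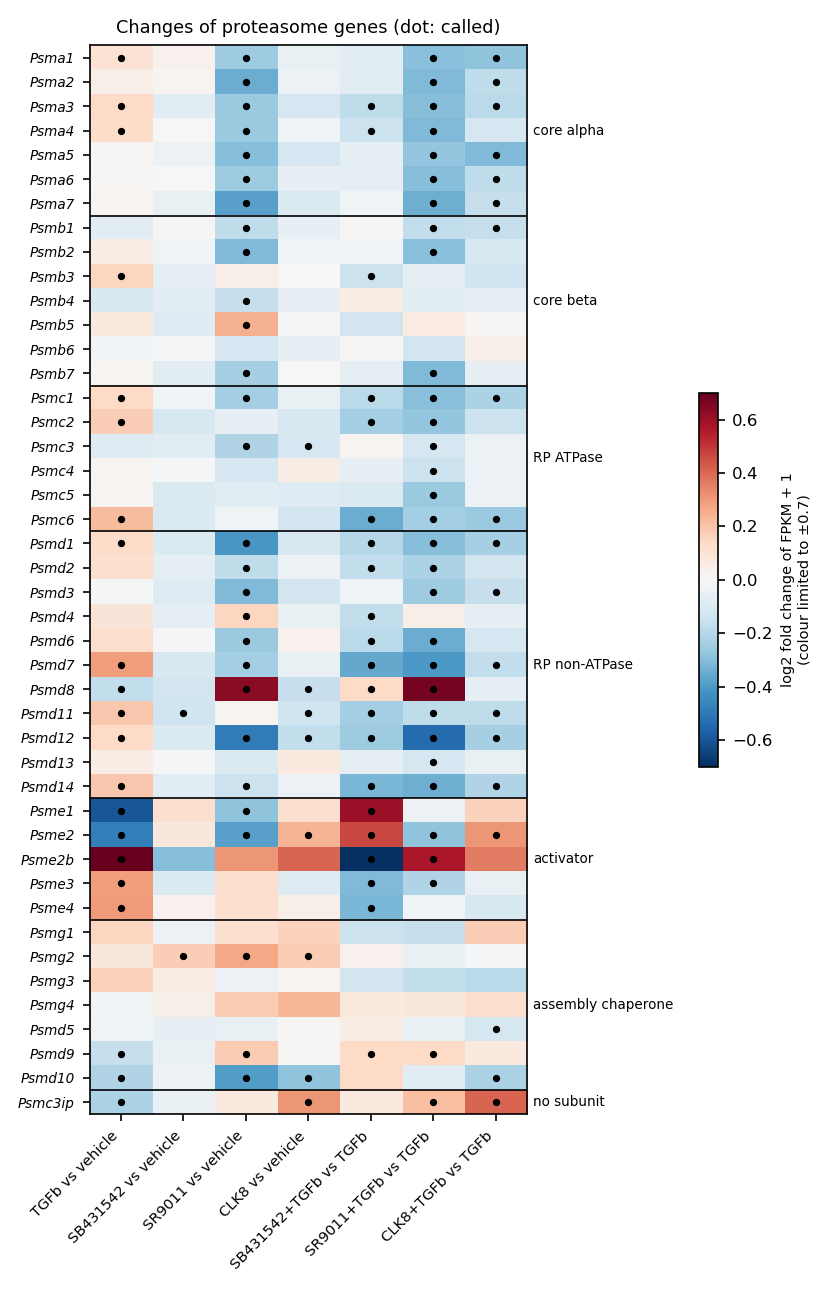
Log2 fold change of FPKM + 1 for the 44 tested genes (lines, by role) in the 7 comparisons between groups (columns), with colour limited to ±0.7; a dot marks an adjusted p below 0.05. SR9011 columns are mostly blue in the core alpha ring (7 of 7 genes lower, without and with TGFb), while Psmd8 is red in both.

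The activators gave the largest TGFb changes of any role. Psme1 and Psme2 encode the interferon-inducible cap. Psme1 measured 147, 169.8 and 162 FPKM with vehicle and 104, 108 and 101 FPKM with TGFb (log2 fold change -0.60, SE 0.069, limma adjusted p = 1.19e-07). Psme2 measured 184, 218 and 208 FPKM with vehicle and 139, 152 and 143 FPKM with TGFb (log2 fold change -0.48, SE 0.078, limma adjusted p = 1.51e-05). For both, every TGFb library lay below every vehicle library. The other caps went up. Psme3, which encodes the nuclear cap, measured 79.4, 77.7 and 77.4 FPKM with vehicle and 95.4, 93.1 and 98.0 FPKM with TGFb (log2 fold change 0.29, SE 0.055, limma adjusted p = 0.000132). Psme4, encoding a large single-chain cap, measured 15.9, 14.9 and 15.3 FPKM with vehicle and 20.1, 18.7 and 18.6 FPKM with TGFb (log2 fold change 0.30, SE 0.065, limma adjusted p = 0.000495). Neither gene's groups overlapped. Psme2b, read with the reserve given above, rose from 2.16, 3.32 and 2.45 FPKM to 5.73, 6.44 and 6.26 FPKM, opposite to its near copy Psme2.

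The balance of caps was also read within each library. The ratio of Psme1 to Psme3 was 1.85, 2.19 and 2.09 with vehicle and 1.09, 1.16 and 1.03 with TGFb, ranges that do not overlap. With SB431542 and TGFb together it was 1.99, 2.03 and 2.203, and with CLK8 and TGFb 1.23, 1.21 and 1.37. The share of the immunosubunit Psmb8 in the summed FPKM of Psmb8 and its constitutive counterpart Psmb5 was 16.5, 20.8 and 18.6% with vehicle and 10.9, 11.3 and 9.21% with TGFb. Psmb5 itself was not called (0.07, adjusted p = 0.385 by limma) except on the TPM scale (0.14, limma adjusted p = 0.042), whereas Psmb8, Psmb9 and Psmb10, which are not members, fell by 0.87, 1.10 and 0.76 on the log2 scale. The ratio of Psme1 to Psme2, both on chromosome 14, ranged from 0.622 to 0.895 over the 24 libraries.

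**Figure D3:**
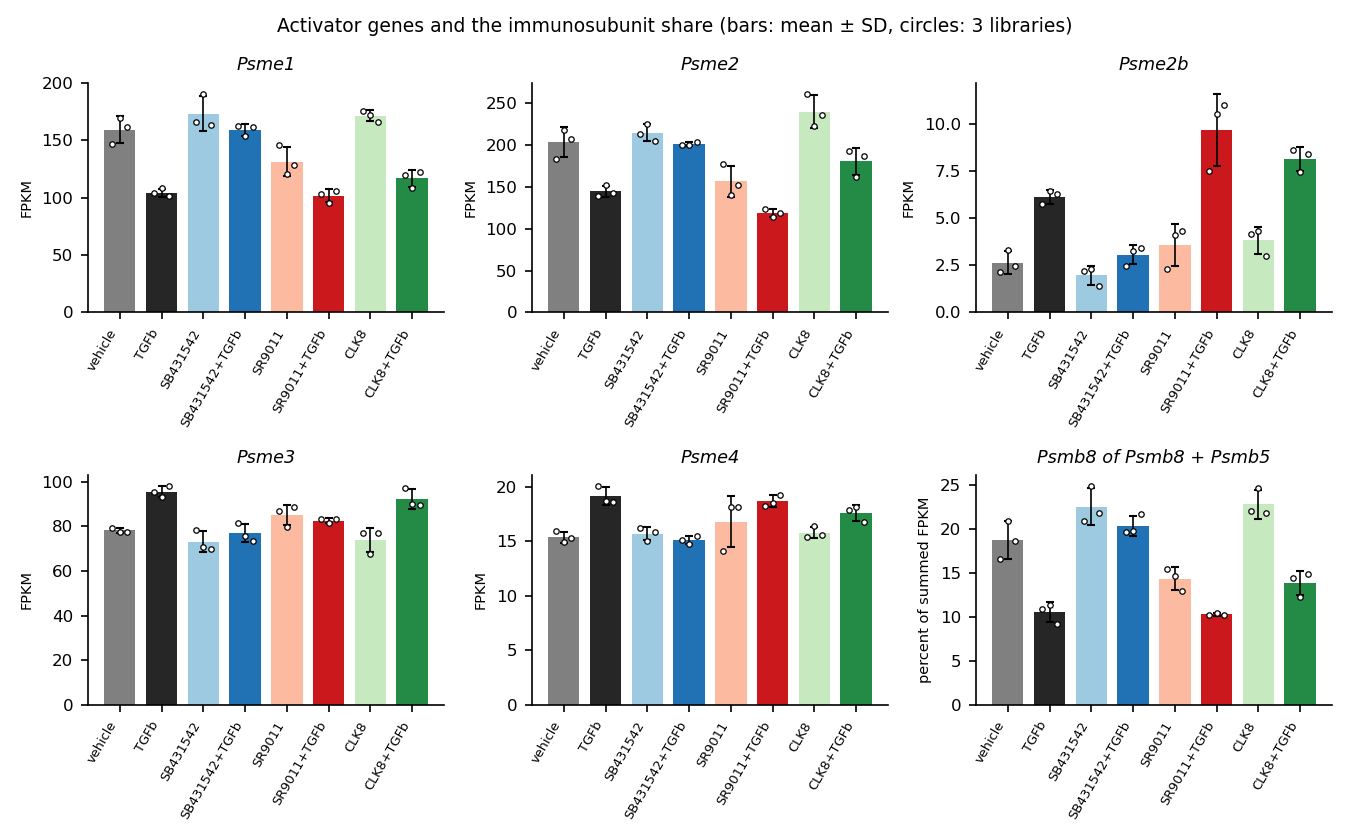
FPKM of the 5 activator genes and, lower right, the percent of Psmb8 in summed Psmb8 and Psmb5 FPKM, by group; bars are means, error bars SD and circles the 3 libraries. Psme1 and Psme2 are lower with TGFb (104, 108 and 101 FPKM for Psme1) and Psme3, Psme4 and Psme2b higher, whereas with SB431542 and TGFb together Psme1 lies between 154 and 162 FPKM.

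SB431542 given with TGFb was compared with TGFb alone, which asks what the receptor inhibitor does to the TGFb-treated state; the comparison shares the TGFb libraries with the one above. Of the 44 members, 4 were higher and 17 lower, where 38.3% of all tested genes were called higher and 21.4% lower. The members' median was -0.077 against 0.068 for all tested genes. Regulatory particle genes made up 11 of the 17 lower calls, core genes 3 and activators 3. The count was 2 higher and 22 lower on the TPM scale and 2 higher and 24 lower after quantile normalization. Over all tested genes the calls went from 4328 higher and 2412 lower to 3691 and 2700 on the TPM scale. After quantile normalization they were 3315 and 3450. Without TGFb replicate 1 or without replicate 3 of the SB431542 and TGFb group, 2 members were called higher.

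Psmd7 measured 139.5, 134 and 128 FPKM with SB431542 and TGFb, below all 3 TGFb libraries given above (log2 fold change -0.36, SE 0.051, limma adjusted p = 2.06e-06). Psmc6 measured 132, 128 and 125 FPKM, again below every TGFb library (log2 fold change -0.35, SE 0.058, limma adjusted p = 1.85e-05). Psmd14 fell to 93.6, 90.3 and 89.7 FPKM (log2 fold change -0.32). Psme1 rose to 162, 154 and 162 FPKM (log2 fold change 0.60, SE 0.069, limma adjusted p = 8.97e-08) and Psme2 to 199.7, 199.9 and 204 FPKM (log2 fold change 0.47), both above all TGFb libraries. Psme3, Psme4 and Psme2b fell by 0.31, 0.32 and 0.82 on the log2 scale. The calls for Psmd8 (0.14) and Psmd9 (0.14) were lost on the TPM scale and after quantile normalization. Leaving out single libraries ended 8 of the 21 calls (Psma4, Psmb3, Psmc1, Psmd2, Psmd4, Psmd6, Psmd8 and Psmd9), each of the 6 libraries ending at least 1 of them.

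With SB431542 alone few proteasome genes passed the test. Of the 44 members, 1 was higher and 1 lower, where 11.9% of all tested genes were called higher and 5.05% lower. Psmg2, a chaperone of the alpha ring, measured 27.95, 28.9 and 28.2 FPKM with vehicle and 33.7, 31.1 and 31.4 FPKM with SB431542 (log2 fold change 0.17, SE 0.049, limma adjusted p = 0.0157). Psmd11 measured 65.1, 60.5 and 61.5 FPKM with vehicle and 59.6, 55.2 and 54.9 FPKM with SB431542 (log2 fold change -0.14, SE 0.046, limma adjusted p = 0.0409). The libraries did not overlap for either gene. All 17 regulatory particle genes had a log2 fold change below 0, with a median of -0.087, against a median of 0.033 over all tested genes. Neither call held throughout: Psmg2 was lost without vehicle replicate 1, vehicle replicate 3 or SB431542 replicate 1, and Psmd11 without vehicle replicate 1, vehicle replicate 3, SB431542 replicate 2 or SB431542 replicate 3. Psmd11 was not called on the TPM scale either, which gave 1 member higher and 0 lower. Over all tested genes that scale called 1330 higher and 471 lower.

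SR9011 lowered the core alpha ring as a whole and moved single subunits of the regulatory particle in opposite directions. Of the 44 members, 5 were higher and 23 lower, where 40.7% of all tested genes were called higher and 28.3% lower. The members' median log2 fold change was -0.156 against 0.063 for all tested genes. All 7 alpha ring genes fell, by 0.25 to 0.38 on the log2 scale. In the beta ring 4 of 7 tested genes fell and 1, Psmb5, rose. In the regulatory particle 9 of 17 genes fell and 2, Psmd8 and Psmd4, rose. Without SR9011 replicate 2, the library with the lowest proteasome values, 8 members were called higher, and the number called lower stayed between 21 and 26 whichever library was left out.

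Psma7 measured 198, 191 and 178 FPKM with vehicle and 162, 131 and 144 FPKM with SR9011 (log2 fold change -0.38, SE 0.064, limma adjusted p = 1.7e-05). Psma2 measured 154, 158 and 155 FPKM with vehicle and 128, 115 and 124 FPKM with SR9011 (log2 fold change -0.35, SE 0.042, limma adjusted p = 1.24e-07). Psma5, the lowest core gene, measured 115, 119.7 and 112 FPKM with vehicle and 101, 83.5 and 97.3 FPKM with SR9011 (log2 fold change -0.30, SE 0.053, limma adjusted p = 2.59e-05). In each of these alpha subunits all 3 SR9011 libraries were below all 3 vehicle libraries. Psma1 measured 111, 109 and 112 FPKM against 134, 133 and 127 FPKM (log2 fold change -0.25). Among beta subunits Psmb2 fell most, from 143 ± 5.48 to 115 ± 6.80 FPKM (mean ± SD, n = 3 each), and Psmb7 fell to 305, 261 and 296 FPKM (log2 fold change -0.23). Psmb4 and Psmb1 also fell (-0.16 and -0.18), although neither was called after quantile normalization and Psmb4 not without vehicle replicate 1, vehicle replicate 2 or SR9011 replicate 2.

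Psmb5 was the core gene called higher. It measured 290.0, 237.7 and 281 FPKM with SR9011 against 231, 227 and 218 FPKM with vehicle (log2 fold change 0.25, SE 0.068, limma adjusted p = 0.00226). Its lowest SR9011 library was still above the highest vehicle library. Psmb3 was also above 0 (0.04) without passing, and was called higher after quantile normalization (0.13, limma adjusted p = 0.0284). The ratio of Psmb5 to the median of the 15 core genes in the same library was 1.501, 1.44 and 1.40 with vehicle and 2.10, 1.97 and 2.09 with SR9011. That core median averaged 155.93 FPKM with vehicle and 131.19 FPKM with SR9011, so the ratio rose further than Psmb5 itself. The summed alpha ring stood at 0.585, 0.590 and 0.589 of the summed beta ring with vehicle and at 0.491, 0.514 and 0.509 with SR9011. The values of the other groups without SR9011 ran from 0.553 to 0.623, and SR9011 with TGFb gave 0.550, 0.523 and 0.535. The alpha ring was thus lower relative to the beta ring in all 3 SR9011 libraries than in any vehicle library.

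Psmd8 changed more than any other subunit of either particle. It measured 164, 135 and 160.4 FPKM with SR9011 against 98.3, 99.0 and 96.9 FPKM with vehicle (log2 fold change 0.63, SE 0.053, limma adjusted p = 3.69e-10). Psmd8 stood at 0.947, at the median itself and at 0.978 of the median regulatory particle gene in the 3 vehicle libraries and at 1.32, 1.27 and 1.38 with SR9011. The other call upward in this particle was Psmd4, a ubiquitin receptor, with 158, 133 and 148 FPKM against 132, 132 and 131 FPKM (log2 fold change 0.15, SE 0.062, limma adjusted p = 0.0366). That call was lost on the TPM scale (log2 fold change 0.08) and without each of vehicle replicates 1, 2 and 3 and SR9011 replicates 1 and 3. Psmd8, by contrast, was called in every fit.

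Psmd12, another lid subunit, fell most. It measured 104, 93.9 and 94.4 FPKM with vehicle and 72.3, 66.6 and 68.6 FPKM with SR9011 (log2 fold change -0.49, SE 0.058, limma adjusted p = 1.06e-07). Psmd1, a large scaffold of the base, measured 80.7, 76.5 and 74.1 FPKM with vehicle and 57.0, 58.4 and 58.2 FPKM with SR9011 (log2 fold change -0.41, SE 0.051, limma adjusted p = 2.14e-07). Neither gene's groups overlapped. Within a library Psmd12 fell to 0.584, 0.624 and 0.591 of the median regulatory particle gene, from a vehicle mean of 0.967. That median rose from a mean of 100.57 FPKM with vehicle to 115.51 FPKM with SR9011. It did so although 14 of the 17 genes had a log2 fold change below 0. The ratio therefore fell further than Psmd12 itself. Psmd3, Psmd6 and Psmd7 fell by 0.31, 0.26 and 0.24 on the log2 scale, and Psmd14 by 0.15. Of the 6 ATPases, Psmc1 (-0.24) and Psmc3 (-0.21) were called. Psmc4 was called lower with the replicate block (-0.12, limma adjusted p = 0.0425) and on the TPM scale (-0.19, limma adjusted p = 0.00393), which also called Psmc2 (-0.14, limma adjusted p = 0.0372). The promoters printed above belong to genes at both ends of this range: Psmd8 and Psmb5 at the upper, Psmd12 and Psma7 at the lower.

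**Figure D4:**
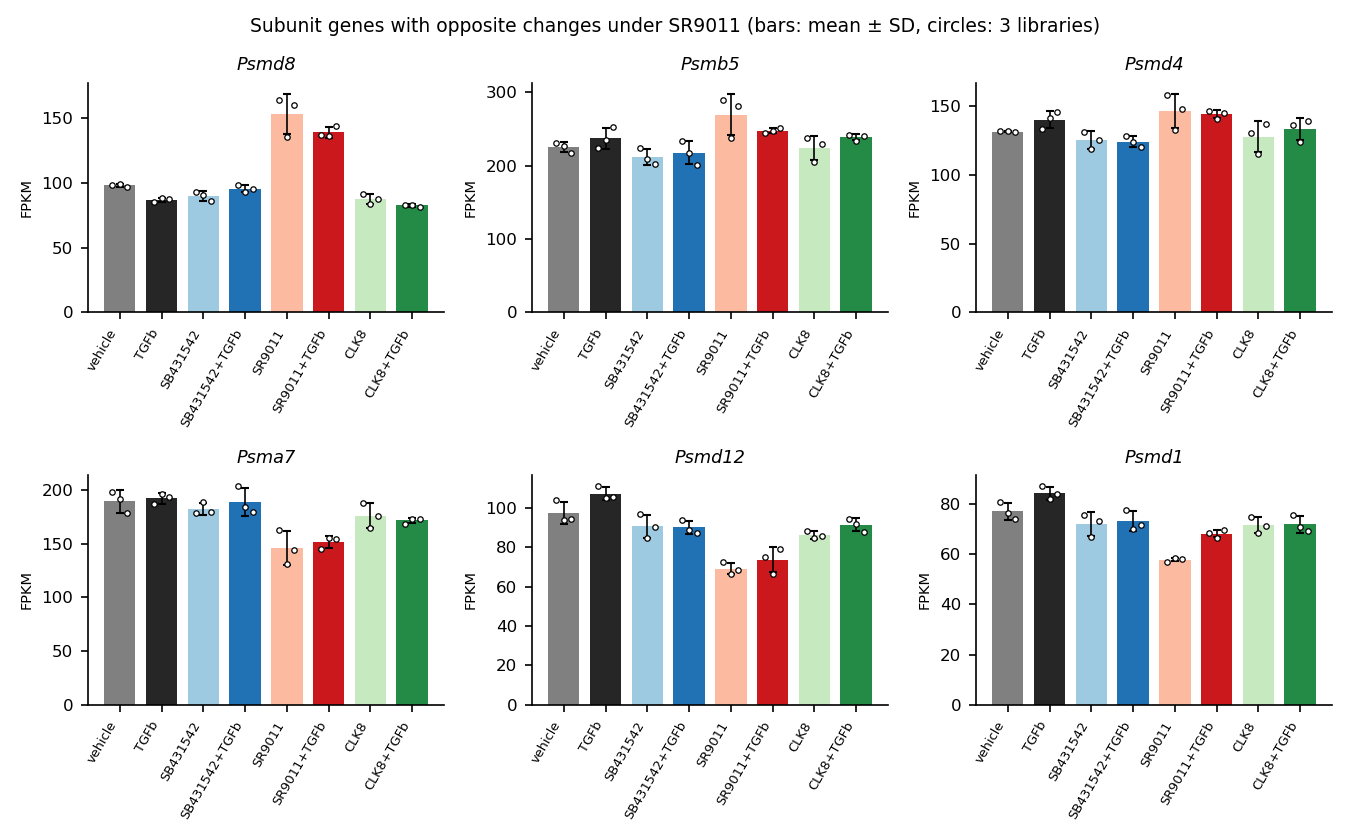
FPKM of 6 subunit genes in the 8 groups; bars are means, error bars SD and circles the 3 libraries. Psmd8 rises from 96.9 to 99.0 FPKM with vehicle to 135 to 164 FPKM with SR9011, while Psmd12 falls to between 66.6 and 72.3 FPKM; Psmb5 and Psmd4 are higher and Psma7 and Psmd1 lower with SR9011.

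Outside the particles, SR9011 lowered the interferon-inducible cap and split the chaperones. Psme1 measured 146, 121 and 128 FPKM with SR9011 (log2 fold change -0.28, SE 0.069, limma adjusted p = 0.00112), below every vehicle library, of which the lowest was 147 FPKM. Psme2 measured 177, 139.7 and 153 FPKM (log2 fold change -0.38, SE 0.078, limma adjusted p = 0.000169). Psme3 at 0.12, Psme4 at 0.11 and Psme2b at 0.31 on the log2 scale did not pass the test; Psme3 was called higher with the replicate block (0.12, limma adjusted p = 0.0239) and after quantile normalization (0.12, limma adjusted p = 0.0256). Psmg2 measured 36.8, 33.0 and 33.2 FPKM against 27.95, 28.9 and 28.2 FPKM with vehicle (log2 fold change 0.27, SE 0.049, limma adjusted p = 4.16e-05). Psmd9, a chaperone of the ATPase ring, measured 23.8, 20.0 and 21.1 FPKM against 19.3, 18.04 and 19.2 FPKM (log2 fold change 0.18); the call was lost without SR9011 replicate 1, on the TPM scale and after quantile normalization. Psmd10, also a chaperone of that ring and known as gankyrin, fell from 35.2, 36.1 and 36.7 FPKM to 27.3, 24.8 and 29.9 FPKM (log2 fold change -0.39, SE 0.071, limma adjusted p = 4.26e-05). Psmg1, Psmg3, Psmg4 and Psmd5 did not pass, with log2 fold changes of 0.12, -0.04, 0.18 and -0.05; Psmd5 was called lower on the TPM scale and after quantile normalization (-0.13, limma adjusted p = 0.0412 and 0.00821).

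SR9011 was compared a second time in the presence of TGFb, against TGFb alone, with no library in common with the comparison of SR9011 and vehicle. There, 4 of the 44 members were higher and 27 lower, where 36.8% of all tested genes were called higher and 24.0% lower. Among the 4 was Psmc3ip, which is no subunit and was not called on the TPM scale (0.12, limma adjusted p = 0.0537). The median was -0.191 for the members and 0.051 for all tested genes. All 7 alpha ring genes, 3 of 7 beta ring genes and all 6 ATPases fell, as did 9 of the 11 other regulatory particle genes. On the TPM scale 2 members were called higher and 35 lower, while the calls over all 11297 genes went from 4158 higher and 2713 lower to 3078 higher and 3645 lower. Leaving out any of the 6 libraries left 24 to 27 members called lower.

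Psmd8 measured 137, 136 and 144 FPKM with SR9011 and TGFb against 85.04, 88.2 and 87.3 FPKM with TGFb (log2 fold change 0.67, SE 0.053, limma adjusted p = 2.17e-10). Psmd12 measured 75.1, 66.5 and 79.1 FPKM against 111, 105 and 106 FPKM (log2 fold change -0.54, SE 0.058, limma adjusted p = 3.22e-08). Psmd7 measured 129, 128 and 133 FPKM against 173, 167 and 178 FPKM (log2 fold change -0.40, SE 0.051, limma adjusted p = 4.12e-07). All 3 genes had groups without overlap, with Psmd8 higher and the lid subunits Psmd7 and Psmd12 lower. Psmd6, a lid subunit, measured 82.2, 74.8 and 82.5 FPKM against 109, 96.3 and 102 FPKM (log2 fold change -0.35). Psmb5 was not called here (245, 247 and 251 FPKM against 224, 235 and 253 FPKM, log2 fold change 0.06, adjusted p = 0.442 by limma), nor was Psmd4 (0.04). Psme2b rose from 5.73, 6.44 and 6.26 FPKM to 7.51, 10.5 and 11.0 FPKM (log2 fold change 0.57) while Psme2 fell to 124, 114 and 119 FPKM (-0.28) and Psme3 to 83.4, 81.3 and 83.1 FPKM (-0.21).

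The lower calls of the SR9011 comparisons without and with TGFb shared 20 members, which is 87.0% of the 23 called without TGFb and 74.1% of the 27 called with it. Psma1 to Psma7, Psmb1, Psmb2, Psmb7, Psmc1, Psmc3 and 7 non-ATPase subunits from Psmd1 to Psmd14 were among them, with Psme2. The higher calls shared Psmd8 and Psmd9, which is 40.0% of the 5 without TGFb and 2 of the 4 with it. Under TGFb, Psmd9 was not called on the TPM scale or after quantile normalization (log2 fold change 0.05 in both). Nor was it called without the filter on low values, without trend or with the replicate block. No member was called in opposite directions. Of all tested genes, 28.3% and 24.0% were called lower and 40.7% and 36.8% higher in the 2 comparisons. Their overlap was not computed, so the shared calls are not shown to be particular to the members. The calls for Psmd9, Psmc3, Psmc4 and Psmd13 under TGFb were lost when single libraries were left out, and each of the 6 libraries ended at least 1 of these calls.

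**Figure D5:**
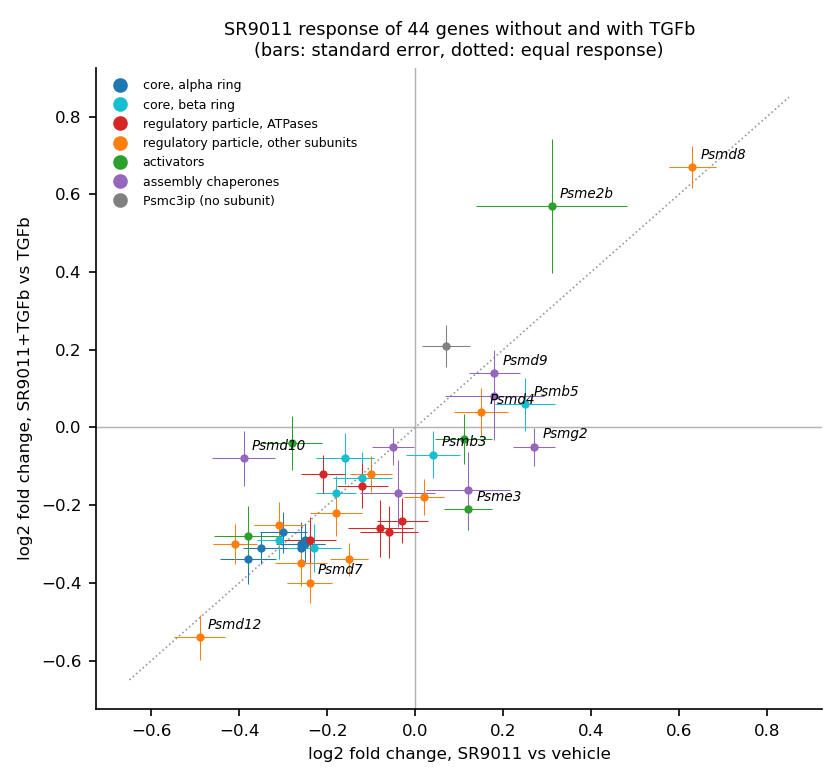
Log2 fold change for SR9011 against vehicle (horizontal) and for SR9011 with TGFb against TGFb (vertical) for the 44 tested genes, coloured by role, with standard errors; the dotted line marks equal response. Most genes lie in the lower left, Psmd8 lies alone at 0.63 and 0.67, and Psmd12 lies lowest at -0.49 and -0.54.

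With CLK8 alone, 3 of the 44 members were higher and 5 lower, where 30.3% of all tested genes were called higher and 13.6% lower. No core gene was called in this fit, but Psma3 was called lower after quantile normalization and with the replicate block (-0.12, limma adjusted p = 0.032 and 0.0429), and Psma5 on the TPM scale (-0.11, limma adjusted p = 0.0409) and after quantile normalization (-0.13, limma adjusted p = 0.0219). Psmd10 measured 35.2, 36.1 and 36.7 FPKM with vehicle and 31.3, 26.3 and 30.9 FPKM with CLK8 (log2 fold change -0.28, SE 0.071, limma adjusted p = 0.00255). Psmc3ip, the recombination cofactor, measured 30.9, 31.2 and 32.5 FPKM with vehicle and 40.4, 38.9 and 38.9 FPKM with CLK8 (log2 fold change 0.31, SE 0.055, limma adjusted p = 6.75e-05). Psmg2 rose to 30.9, 32.1 and 34.0 FPKM (log2 fold change 0.18). In these 3 genes the CLK8 and vehicle libraries did not overlap, and their calls were kept whichever library was left out. Psme2 rose to 261, 223 and 235 FPKM (log2 fold change 0.24), and Psmd8, Psmd11, Psmd12 and Psmc3 fell by 0.16, 0.14, 0.17 and 0.12.

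Those last 5 CLK8 calls each depended on single libraries. Without vehicle replicate 1, 2 members were called lower, and without CLK8 replicate 2, 1 member was. After quantile normalization 3 members were called higher and 9 lower. The calls over all tested genes moved as well, from 3425 higher and 1534 lower to 2385 and 2197. CLK8 replicate 2 deviated from its group mean over the members by -0.061 log2 units.

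CLK8 with TGFb, set against TGFb alone, gave 2 of the 44 members higher and 17 lower, where 27.7% of all tested genes were called higher and 13.3% lower. The same TGFb libraries served in the comparison of TGFb with vehicle and in those of SB431542 and SR9011 under TGFb. These comparisons are therefore not independent of each other. The median was -0.121 for the members and 0.046 for all tested genes. In the alpha ring 6 of 7 genes fell, in the beta ring 1 of 7, and in the regulatory particle 8 of 17. Psma5 measured 97.6, 90.6 and 93.9 FPKM with CLK8 and TGFb against 119, 117 and 114 FPKM with TGFb (log2 fold change -0.31, SE 0.053, limma adjusted p = 6.83e-05). Psma1 measured 122, 117 and 110.4 FPKM against 146, 137 and 141 FPKM (log2 fold change -0.28, SE 0.042, limma adjusted p = 1.48e-05). Psmc6 fell to 142, 139 and 128 FPKM (log2 fold change -0.26). Each of these 3 genes had CLK8 and TGFb libraries below all TGFb libraries.

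Psme2 rose with CLK8 under TGFb, to 193, 162 and 186 FPKM from 139, 152 and 143 FPKM (log2 fold change 0.31, SE 0.078, limma adjusted p = 0.00253), and Psmc3ip to 35.7, 35.1 and 37.3 FPKM (log2 fold change 0.41, SE 0.055, limma adjusted p = 2.96e-06). Psme1 at 119.9, 108 and 122.7 FPKM was not called (log2 fold change 0.16, adjusted p = 0.0674 by limma), but was called on the TPM scale (0.19, limma adjusted p = 0.00934), after quantile normalization (0.16, limma adjusted p = 0.0373) and with the compared groups alone (0.16, limma adjusted p = 0.0266). Psmd8 was not called either (-0.07). Psmd5, a chaperone of the ATPase ring, fell from 35.5, 34.1 and 34.6 FPKM to 34.1, 31.7 and 29.8 FPKM and Psmd10 from 30.5, 31.8 and 30.5 FPKM to 27.1, 25.9 and 26.4 FPKM. Without replicate 2 of the CLK8 and TGFb group, 11 members were called lower. The calls for Psma3, Psma7, Psmd3, Psmd5, Psmd7 and Psmd10 were lost without 1 or another of the 6 libraries, each of which ended at least 1 call.

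Across all 8 groups the assembly chaperones Psmg1, Psmg3 and Psmg4 passed none of the 10 tests by limma; Psmg2 passed 4 of them. For Psmg1 and Psmg3 this depended on the fit. With TGFb both were called higher on the TPM scale (0.22 and 0.23, limma adjusted p = 0.0317 and 0.0157) and with the compared groups alone. With SR9011 under TGFb both were called lower on the TPM scale (-0.25 and -0.26, limma adjusted p = 0.0139 and 0.00601), after quantile normalization and with the compared groups alone. With CLK8 under TGFb, Psmg3 was called lower after quantile normalization (-0.23, limma adjusted p = 0.0279) and with the compared groups alone, and Psmg1 higher with the compared groups alone (0.17, limma adjusted p = 0.0152). Psmg1, which pairs with Psmg2, measured 35.8, 33.9 and 31.3 FPKM with vehicle and 30.3 to 44.97 FPKM over the 24 libraries. Psmg3 measured 35.5, 34.3 and 33.7 FPKM with vehicle and 29.0 to 41.3 FPKM in all 24, and its partner Psmg4 30.7, 35.4 and 29.2 FPKM and 27.1 to 41.6 FPKM. Their standard errors were the largest among the chaperones, 0.096, 0.086 and 0.11 log2 units, against 0.049 for Psmg2. Psmd5 measured 36.8, 35.1 and 34.8 FPKM with vehicle and 29.8 to 38.0 FPKM in all 24.

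Summed over members, proteasome genes made up 1.002, 0.962 and 0.949% of all FPKM with vehicle, 1.05, 1.03 and 1.05% with TGFb and 0.858, 0.822 and 0.841% with SR9011. The core share was 0.501, 0.483 and 0.471% with vehicle, 0.524, 0.520 and 0.527% with TGFb and 0.426, 0.400 and 0.415% with SR9011. The regulatory particle share was 0.375, 0.347 and 0.349% with vehicle, 0.403, 0.390 and 0.407% with TGFb and 0.316, 0.313 and 0.315% with SR9011. For all 3 shares the TGFb libraries lay above and the SR9011 libraries below the vehicle libraries. Summed FPKM that were not divided by the library sum overlapped. SR9011 replicate 1 gave 5232.2 FPKM for the members, 2598.0 for the core and 1930.1 for the regulatory particle. Vehicle replicate 3 gave 5227.6, 2594.5 and 1922.6 FPKM. The member sum of TGFb replicate 2 (5430.9 FPKM) lay below that of vehicle replicate 1 (5440.1 FPKM), while the core and regulatory particle sums with TGFb stayed above vehicle. The ratio of core to regulatory particle ranged from 1.28 to 1.44 over the 24 libraries.

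Whether the TGFb response differed in the presence of a compound was tested as an interaction, the TGFb response with the compound minus that without it. With SB431542, 3 members were higher and 5 lower in this difference, where 21.5% of all tested genes were called higher and 12.8% lower. Psme1 changed with TGFb by -0.60 without the inhibitor, and the difference was 0.48 (SE 0.097, limma adjusted p = 0.000494). Among the called members Psme4 gave the lowest difference, -0.35 (SE 0.092, limma adjusted p = 0.0056). On the TPM scale 3 members were higher and 10 lower, after quantile normalization 3 and 9. Over all tested genes the calls went from 2433 higher and 1447 lower to 1829 and 1732 on the TPM scale. After quantile normalization they were 2032 and 1962. Without vehicle replicate 2 or 3, TGFb replicate 1, SB431542 replicate 1 or replicate 3 of SB431542 with TGFb, 3 members were lower. The calls lost were those of Psmc6 and Psme3.

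With SR9011, 1 member was higher and 4 lower in the interaction, where 16.6% of all tested genes were called higher and 15.3% lower. Psmg2 rose with SR9011 alone and measured 28.7, 28.8 and 29.0 FPKM with SR9011 and TGFb against 32.0, 29.4 and 28.5 FPKM with TGFb, an interaction of -0.32 (SE 0.069, limma adjusted p = 0.00113). Psme3 gave -0.33 (SE 0.078, limma adjusted p = 0.0027). Psmd10 was the member in the other direction, at 0.32 (limma adjusted p = 0.0201). It fell with SR9011 alone and measured 30.3, 28.4 and 29.2 FPKM with SR9011 and TGFb against 30.5, 31.8 and 30.5 FPKM with TGFb. For Psmd8 the interaction was 0.04 and was not called. The number lower was 2 without vehicle replicate 2 or TGFb replicate 1 and 9 without SR9011 replicate 2. The number higher was 0 without SR9011 replicate 2 or replicate 1 of SR9011 with TGFb, 2 without vehicle replicate 1 or replicate 2 of SR9011 with TGFb, and 3 without SR9011 replicate 1.

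With CLK8, 0 members were higher and 1 lower in the interaction, where 4.58% of all tested genes were called higher and 3.39% lower. That member was Psma1, at -0.23 (SE 0.060, limma adjusted p = 0.0164). It was not called on the TPM scale, after quantile normalization, or without vehicle replicate 3, TGFb replicate 1, CLK8 replicate 3 or replicate 3 of CLK8 with TGFb. Without replicate 1 of CLK8 with TGFb, 2 members were lower.

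Genes that work with the proteasome but fall outside the name rule were read from lists by role, with Paaf1 not analysed here. Hspa1a lay between 0.08 and 0.6 FPKM and was not tested. Of 8 tested proteasome parts outside the rule, 4 rose and 1 fell with TGFb and 2 rose and 3 fell with SR9011. The shares of all tested genes called higher and lower were 20.5% and 34.4% with TGFb and 40.7% and 28.3% with SR9011. The 4 that rose with TGFb were Usp14 and Uchl5, deubiquitinases of the regulatory particle, Txnl1 and Ecpas, with log2 fold changes of 0.27, 0.22, 0.21 and 0.20. The core maturation factor Pomp fell with TGFb and with SR9011: it measured 163, 171 and 175 FPKM with vehicle, 146, 135 and 133 FPKM with TGFb and 119, 101 and 116 FPKM with SR9011. With SR9011 the log2 fold change was -0.60 (SE 0.066, limma adjusted p = 2.71e-08), and all 3 SR9011 libraries were below the TGFb and vehicle libraries.

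Of 9 genes that control proteasome gene expression, 5 rose and 1 fell with SR9011, and 7 rose and 1 fell with SR9011 under TGFb. Among all tested genes, 40.7% were called higher and 28.3% lower with SR9011, and 36.8% and 24.0% with SR9011 under TGFb. Nfe2l1, which encodes NRF1, measured 97.7, 97.2 and 99.4 FPKM with vehicle and 204, 201 and 217 FPKM with SR9011 (log2 fold change 1.07, SE 0.057, limma adjusted p = 9.8e-14). Its binding partner Mafg measured 34.8, 36.2 and 34.3 FPKM with vehicle and 69.1, 74.9 and 83.4 FPKM with SR9011 (log2 fold change 1.09). For both genes the SR9011 and vehicle libraries were fully apart. Nfe2l1 also rose with TGFb, to 133, 136 and 133 FPKM (log2 fold change 0.44, limma adjusted p = 6.24e-07). It measured 142, 116 and 144 FPKM with CLK8 and 178, 169 and 179 FPKM with CLK8 and TGFb. With SB431542 Nfe2l1 was not called (-0.11), nor was Mafg with TGFb (0.08). Vcp, the segregase that draws NRF1 out of the endoplasmic reticulum, was the gene that fell (-0.51). The activity of NRF1 protein was not measured.

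Among 5 tested stress-inducible partners, 4 rose with SR9011 and 5 with SR9011 under TGFb, where 40.7% and 36.8% of all tested genes were called higher. The autophagy receptor Sqstm1 measured 181, 194 and 188 FPKM with vehicle and 566, 478 and 563 FPKM with SR9011 (log2 fold change 1.51, SE 0.059, limma adjusted p = 5.45e-16), and Zfand2a changed by 0.75. Among 6 ubiquitin and E1 genes, 1 rose and 3 fell with TGFb, and 2 rose and 2 fell with SR9011, against all-gene shares of 20.5% higher and 34.4% lower with TGFb and 40.7% and 28.3% with SR9011. The E1 gene Uba1 rose by 0.15 with TGFb and fell by 0.26 with SR9011.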

How the data were processed

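RNA from 24 EMS404 libraries (8 groups of 3) was sequenced at BGI. Per the labels' protocols, RNA was extracted with 1 of 2 kits chosen by yield. The deposited table gives FPKM per Ensembl gene, made by the authors; the submitters' processing notes name mm10, HISAT2 2.0.4, Bowtie2 2.2.5, RSEM and DESeq2, with no roles. The table held 16620 lines; 8 identifiers on 2 lines each (16 lines) were left out. Symbols came from GENCODE M21 (43 identifiers unmatched).

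Log2(FPKM + 1) of the 11297 genes with at least 1 FPKM in at least 3 libraries was fitted with limma 3.58.1 (R 4.3.3; trend and robust moderation, all 8 groups in 1 model), and p-values were adjusted by Benjamini-Hochberg over all tested genes, with a call below 0.05. Fold changes on this scale understate those of low genes. Depth in reads is unknown. SE is limma's standard error (median 0.0639 over genes for a comparison of groups). Self-tests on simulated data were run.

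The members and lists were chosen with earlier results of these data known. Named with values were the catalytic, activator, ubiquitin-handling and chaperone genes and, per comparison, up to 3 called rises and 3 called falls with groups that do not overlap (in interactions up to 2), 27 genes in all; others are given mostly as ranges and counts. Alternatives were pseudocounts of 0.5 and 0.1, no filter, a filter at 5 FPKM, TPM (the deposited FPKM rescaled to a fixed sum per library), quantile normalization, no trend, the compared groups alone, a replicate block and leaving out each library. Replicate numbers were not taken to pair the groups: in 2 of 28 group pairs every correlation of same-numbered deviations exceeded 0.1.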

Additional observations from a re-analysis of the deposited data

Results flagged for a closer look

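For 14 results among the proteasome genes, the change with TGFb differed between cells with and without a compound by a test of the difference itself (limma interaction term, Benjamini-Hochberg adjusted over all tested genes). In the same test 21.5% of all tested genes were called higher and 12.8% lower with SB431542. The shares were 16.6% and 15.3% with SR9011, and 4.58% and 3.39% with CLK8. Of the 44 members, 3 were called higher and 5 lower with SB431542, 1 and 4 with SR9011, and 0 and 1 with CLK8. Each of these is a smaller share than that of all tested genes. With SB431542 the differences, in log2 units, were 0.48 for Psme1, 0.39 for Psme2 and 0.26 for Psmd8, and -0.25 for Psmc6, -0.25 for Psmd7, -0.24 for Psmd14, -0.21 for Psme3 and -0.35 for Psme4. Psme1 measured 166, 191 and 163 FPKM with SB431542 and 162, 154 and 162 FPKM with SB431542 and TGFb.

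With SR9011 the differences were -0.19 for Psmd11, -0.19 for Psmd14, -0.33 for Psme3, -0.32 for Psmg2 and 0.32 for Psmd10. The calls for Psmd11, Psmd14 and Psmd10 were lost when certain single libraries were left out, while those for Psme3 and Psmg2 were kept. The subunit genes Psmd11 and Psmd14 measured 63.8, 62.1 and 63.5 and 91.9, 88.8 and 88.7 FPKM with SR9011 and 63.0, 63.5 and 62.2 and 90.9, 88.3 and 90.0 FPKM with SR9011 and TGFb. Psme3 measured 86.7, 79.9 and 88.7 FPKM with SR9011 and 83.4, 81.3 and 83.1 FPKM with both. With CLK8 the difference was -0.23 for Psma1, which measured 123.5, 126 and 132 FPKM with CLK8 and 122, 117 and 110.4 FPKM with both. The cause of these differences was not tested.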

How the results depend on the processing

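No member's called change turned direction under any alternative. TPM and quantile normalization also moved the calls over all 11297 tested genes. With SR9011, TPM called 3723 of all genes higher and 3775 lower, against 4602 and 3199 in the main fit. In the SB431542 interaction quantile normalization called 2032 higher and 1962 lower, against 2433 and 1447. The member counts below therefore do not show a shift particular to the members. TPM gave 25 members higher and 3 lower with TGFb, 0 lower with SB431542, 3 higher with SR9011, 2 higher with SB431542 and TGFb against TGFb, 2 higher with SR9011 and TGFb against TGFb, 10 lower in the SB431542 interaction, 2 higher in the SR9011 interaction and 0 lower in the CLK8 interaction. Quantile normalization gave 9 lower with CLK8, 2 higher with SB431542 and TGFb, 9 lower in the SB431542 and 9 lower in the SR9011 interaction, and 0 lower in the CLK8 interaction. Without trend, 0 were lower with SB431542. The compared groups alone gave 0 lower with SB431542, 3 higher with SR9011 and 5 higher with CLK8 and TGFb. The replicate block gave 8 lower with CLK8 and 2 lower in the CLK8 interaction, and otherwise kept counts within 1.5 times. With SR9011, Psmd4 and Psmb4 were also not called without the filter on low values or with the compared groups alone. Psmd9 was not called with the compared groups alone either (0.18, limma adjusted p = 0.0501). The cause was not tested. Leaving out each library in turn gave 7 to 15 higher and 5 to 6 lower with TGFb, 0 to 1 higher and 0 to 1 lower with SB431542, 4 to 8 higher with SR9011, 2 to 4 higher and 1 to 5 lower with CLK8, 2 to 3 higher with SB431542 and TGFb, 11 to 16 lower with CLK8 and TGFb, 3 to 7 lower in the SB431542 interaction, 0 to 3 higher and 2 to 9 lower in the SR9011 interaction, and 0 to 2 lower in the CLK8 interaction. Depth in reads is unknown, so counting error was not separable from library spread.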
